A study of Mus musculus with 44 samples.

Results

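The expression of 35 genes of glycolysis, pyruvate handling and the citric acid cycle was examined in the gastric corpus of mice with and without the gastric proton pump. The genes were listed by function, with earlier results of these data known. Of the 31484 genes to which transcripts could be paired, they comprised 21 genes of glycolysis and of glucose and lactate transport and 14 genes of mitochondrial enzymes or of their control, and these sets were described apart. Each of the 35 had counts high enough to be tested, among 14901 genes tested in all.

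Messenger RNA of the corpus was sequenced in 44 libraries. KO mice were homozygous for a disrupted Atp4b, the gene of the H+/K+ATPase beta subunit, WT mice carried the intact gene, and all mice were females of the BalbC background, 13 months old at sampling. They had received either netazepide (NTZ, labelled YF), an antagonist of the gastrin receptor, or its vehicle PEG. There were 13 libraries of KO/PEG and 11 of KO/NTZ mice, and 11 of WT/PEG and 9 of WT/NTZ mice, and all groups shared the strain, the age and the injections. The KO/PEG libraries outnumber the mice that the study's account gives for that group, and how they relate is not stated, so that p-values may in part measure a technical spread. The knockout is present in every cell from conception on, so a difference between genotypes is that of a mucosa that has been without acid throughout life.

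Glycolysis splits glucose to pyruvate in the cytosol. Pyruvate is then either reduced to lactate, which leaves the cell through monocarboxylate carriers, or enters the mitochondria, where the pyruvate dehydrogenase complex turns it to acetyl-CoA for the citric acid cycle. Acid-secreting parietal cells are among the cells richest in mitochondria, since the proton pump runs on ATP, and mucous and proliferating cells rely on oxidation to a lesser degree.

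The total estimated count was 6065084 to 21945124 per library, so that the limit of 3 counts lay between 0.137 and 0.495 CPM (counts scaled to the library size, with TMM factors for all levels of genes). Atp4b was 2891 to 5737 CPM in WT/PEG and 2.28 to 17.0 CPM in KO/PEG libraries, and no KO library went against its label. Libraries differed in how far long transcripts were represented. For each gene, log2 CPM was taken as its difference from the mean of that gene over all libraries. The slope of these differences on log2 transcript length over genes is called the length slope here. It was 0.0848 to 0.374 in WT and -0.444 to 0.228 in KO libraries, and only library 46 of KO/PEG lay in the WT range. Its sign is thus relative to the mean of the libraries. A low slope means that long transcripts had fewer reads, relative to short ones, than in other libraries. It was therefore given beside the main results, with a fit that held it as a covariate, but the slope itself nearly separates the genotypes, so that its part and that of the genotype cannot be fully told apart. In bulk tissue, fewer cells of a type and less RNA per cell cannot be told apart.

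Markers of the gastric cell types moved with the genotype as well. Of the 8 parietal markers, 7 were lower in KO/PEG than in WT/PEG, and the summed level of the 7 other than Atp4b was 7071 to 10460 CPM in WT/PEG and 2295 to 7683 CPM in KO/PEG. All 6 markers of neck cells and of spasmolytic polypeptide-expressing metaplasia (SPEM) were higher, with a summed level of 1826 to 2718 CPM in WT/PEG and 7042 to 63310 CPM in KO/PEG. Of the 4 chief cell markers tested, 3 were lower and 1 was higher. Mitochondrially encoded genes took 4.86% of the counts of the median KO/PEG library and 3.81% of that of KO/NTZ, against 9.57% and 9.41% for WT/PEG and WT/NTZ.

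The first comparison was between the genotypes under vehicle. In KO/PEG against WT/PEG mice, 12 of the 21 glycolysis and transport genes were higher, 3 were lower and 6 did not pass the test. Of the 14 mitochondrial genes, 11 were lower, 1 was higher and 2 did not pass. The median log2 fold change was 0.41 over the glycolysis set and -0.39 over the mitochondrial set, against -0.0028 over all genes tested. Most of the transcriptome differed between the genotypes, with 74.6% of all genes called, 37.5% higher and 37.2% lower, and the counts are to be read against these shares. With the length slope as a covariate, 17.8% of all genes were higher and 17.8% lower. In that fit only 3 glycolysis genes stayed higher (Hk2, Aldoc and Pgk1), 8 were lower, and the median of the set was -0.087. The mitochondrial set then had 10 lower and none higher, with a median of -0.41.

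Hexokinase 2, which traps glucose in the cell by phosphorylation and is the inducible form, had the smallest p of the glycolysis set. Hk2 was 5.80 CPM in the lowest, 8.28 in the median and 11.8 in the highest WT/PEG library, and 16.7, 31.2 and 76.6 CPM in KO/PEG. Every KO/PEG library lay above every WT/PEG library. The log2 fold change was 2.02 ± 0.19 (SE), or 4.05-fold (adjusted p = 3.28e-12), and it was 2.29 with the length slope as a covariate. Of the Hk2 transcripts, the full-length one had a median of 7.35 CPM in WT/PEG and 16.8 in KO/PEG. A noncoding one of 594 bases had 0.955 and 12.2 CPM. Slc16a3, the carrier MCT4 that exports lactate, was 2.58, 5.69 and 7.49 CPM in WT/PEG and 8.998, 19.9 and 68.2 CPM in KO/PEG. These groups did not overlap either, and the log2 fold change was 2.30 ± 0.31 (adjusted p = 1.78e-08). With the length slope as a covariate it was 0.84 and did not pass (adjusted p = 0.0599). Hk2 and Slc16a3 were the 2 of 21 glycolysis genes with every KO/PEG library above every WT/PEG library, which held for 5.46% of all genes tested.

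Slc2a1, the glucose carrier GLUT1, was 44.3, 54.6 and 68.1 CPM in WT/PEG and 60.8, 83.0 and 149.5 CPM in KO/PEG. Of 13 KO/PEG libraries, 11 lay above all WT/PEG libraries (log2 fold change 0.76 ± 0.13, adjusted p = 3.00e-06), and with the covariate the value was 0.17 (adjusted p = 0.459). The reads behind the rise were assigned to Slc2a1-204, a transcript of 2241 bases annotated as a target of nonsense-mediated decay, with a median of 37.1 CPM in WT/PEG and 69.9 in KO/PEG. The main coding transcript (3260 bases) had a median of 18.9 CPM in WT/PEG and 17.5 in KO/PEG. Kallisto divides reads among overlapping transcripts, so the split within a gene is less certain than the sum.

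The promoters of these 3 genes are shown because they are the entry of glucose, its first phosphorylation and the exit of lactate, and each holds the core of the HIF response element, ACGTG, through which hypoxia-inducible factors act. Sequences are from RefSeq (GRCm38.p6), 300 bases around the annotated start on the strand of the gene, with each ACGTG or its reverse complement CACGT in capitals. Hk2 is at chr6:82774405-82774704 on the minus strand, Slc16a3 at chr11:120948817-120949116 and Slc2a1 at chr4:119108495-119108794, both on the plus strand.
Hk2: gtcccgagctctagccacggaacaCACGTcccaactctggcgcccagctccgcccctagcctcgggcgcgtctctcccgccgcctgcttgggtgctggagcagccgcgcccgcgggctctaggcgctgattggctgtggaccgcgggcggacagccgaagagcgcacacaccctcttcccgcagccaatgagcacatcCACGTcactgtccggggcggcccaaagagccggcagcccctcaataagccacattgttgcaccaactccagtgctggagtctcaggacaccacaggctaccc
Slc16a3: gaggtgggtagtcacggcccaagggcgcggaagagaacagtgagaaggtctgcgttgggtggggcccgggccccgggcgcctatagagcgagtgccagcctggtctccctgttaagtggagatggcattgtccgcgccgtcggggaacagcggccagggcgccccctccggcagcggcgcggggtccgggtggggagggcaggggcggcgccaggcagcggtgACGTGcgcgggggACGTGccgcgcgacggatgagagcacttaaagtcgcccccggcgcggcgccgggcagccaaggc
Slc2a1: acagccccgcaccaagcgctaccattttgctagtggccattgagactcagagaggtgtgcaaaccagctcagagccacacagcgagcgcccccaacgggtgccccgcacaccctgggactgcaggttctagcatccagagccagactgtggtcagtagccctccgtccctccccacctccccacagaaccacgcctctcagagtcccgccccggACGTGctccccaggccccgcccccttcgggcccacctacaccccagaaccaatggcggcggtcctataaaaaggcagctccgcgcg
Of the 35 genes, 34 were found in the promoter table (Idh3a was not matched). ACGTG on either strand was present in 13 of the 21 glycolysis genes and 3 of the 13 mitochondrial genes matched, and in 21.8% of all 27025 genes of the table. The 13 were Hk1, Hk2, Pfkm, Aldoa, Aldoc, Gapdh, Pgk1, Pgam1, Pkm, Ldha, Slc2a1, Slc16a1 and Slc16a3, and among them were 8 of the 12 genes that rose and 1 that fell. CACGTG, the E-box, which contains ACGTG, was in Pfkm, Ldha, Slc16a1 and Ogdh, and in 8.09% of all genes. TCAAGGTCA, an element of the estrogen-related receptors, was in none of the 34 and in 0.466% of all genes. A match describes letters in the window and no binding was measured.

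Of the other steps in the glycolysis set, Aldoc, a minor aldolase, was 2.30, 3.01 and 4.41 CPM in WT/PEG and 3.88, 5.23 and 8.12 CPM in KO/PEG. In 11 of 13 KO/PEG libraries it lay above all WT/PEG libraries (log2 fold change 0.94 ± 0.15, adjusted p = 3.29e-07), and it stayed higher with the covariate (0.81, adjusted p = 0.00314). Pgk1, which forms the first ATP of the pathway, was 158, 196 and 262 CPM in WT/PEG and 226, 371 and 456 CPM in KO/PEG. It was higher in 12 of 13 KO/PEG libraries than in any WT/PEG library (0.79 ± 0.10, adjusted p = 7.39e-09), and 0.42 with the covariate (adjusted p = 0.0168). A retrotransposed copy, Pgk1-rs7, shares all of its own 31-base words with Pgk1. Such copies together held a median of 72.4 CPM in WT/PEG and 0.148 CPM in KO/PEG, before TMM factors. With their counts added the log2 fold change of Pgk1 was 0.40 (adjusted p = 2.09e-05). The fit with the covariate was run without these copies.

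Gapdh, which oxidizes glyceraldehyde phosphate, is uncertain in these data. It was 205, 254 and 356 CPM in WT/PEG and 336, 573 and 1197 CPM in KO/PEG, a log2 fold change of 1.42 ± 0.19 (adjusted p = 2.99e-08). However, 89.3% of its counts were assigned to Gapdh-206, a retained-intron transcript of 565 bases, while the pseudogene Gm13394, which shares 96.8% of its words with Gapdh, held a median of 643 CPM. With near-identical copies added, the log2 fold change was 0.61 (adjusted p = 1.51e-07), and with the length slope as a covariate it was -0.12 (adjusted p = 0.396). Eno1, the main enolase, shares reads in the same way with Eno1b, at a median of 320 CPM, and Gm4735. Eno1 was 183, 220 and 268 CPM in WT/PEG and 177, 286 and 530 CPM in KO/PEG (0.58 ± 0.15, adjusted p = 4.64e-04), and 0.20 with its copies added, which did not pass (adjusted p = 0.0580).

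The remaining genes that rose were Gpi1 (0.65 ± 0.11), Pfkl (0.56 ± 0.15), Ldha (0.47 ± 0.11), Aldoa (0.41 ± 0.10) and Tpi1 (0.40 ± 0.10), which act at the isomerase, phosphofructokinase, lactate dehydrogenase, aldolase and triose phosphate steps. Levels of several of them differed with the length slope of the library among KO/PEG mice. Aldoa was 1095 to 1472 CPM in the 5 KO/PEG libraries with a length slope below -0.3 and 604 to 1142 CPM in the other 8. Pfkl was 200 to 337 CPM in the same 5 and 104 to 175 CPM in the other 8, and Gapdh, Tpi1 and Eno1 also did not overlap between these libraries. The ranges of Aldoa, Gpi1 and Ldha overlapped, and in KO/NTZ, split at the same slope, those of Aldoa, Pfkl, Tpi1, Gpi1 and Ldha overlapped while those of Gapdh and Eno1 did not. Without the 9 KO libraries of low slope, Pfkl (0.19, adjusted p = 0.0869) and Eno1 (0.21, adjusted p = 0.0614) did not pass, and the glycolysis set had 10 higher and 4 lower, where 34.2% of all genes were higher and 33.2% lower. Gpi1 (0.44), Ldha (0.42), Tpi1 (0.23) and Aldoa (0.21) stayed higher in that fit. With the slope as a covariate, Pfkl (-0.48, adjusted p = 0.00495), Aldoa (-0.31, adjusted p = 0.00309), Tpi1 (-0.26, adjusted p = 0.0145) and Eno1 (-0.54, adjusted p = 3.10e-05) were lower in KO/PEG, Gpi1 was -0.087 and Ldha 0.077, neither past the threshold. The direction of Pfkl, Aldoa, Tpi1 and Eno1 thus turned with the slope as a covariate, but not when the low-slope libraries were left out. Other than library 46 of KO/PEG, the KO libraries kept there still had slopes below the WT range. Leaving out the low-slope libraries thus did not match the slopes of the genotypes.

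**Figure D1:**
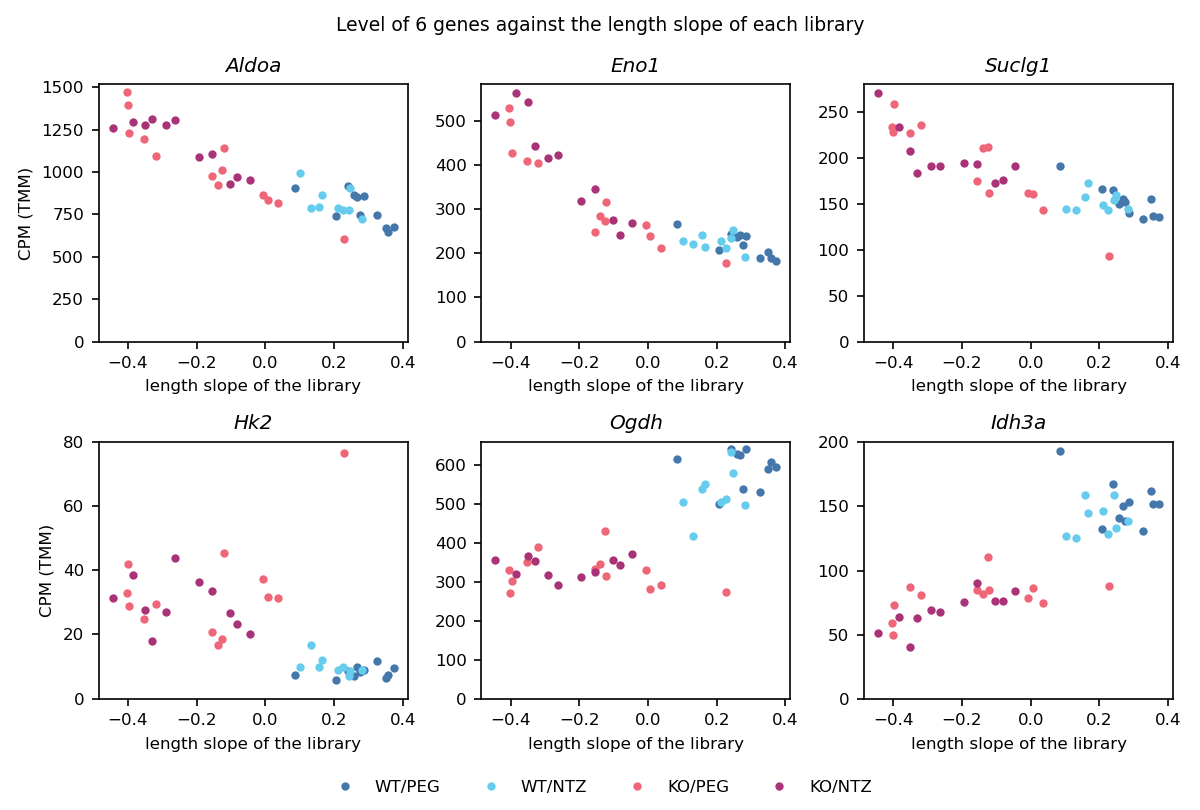
Level in CPM of 6 genes in each of the 44 libraries against the length slope of the library, with a colour for each group. Aldoa, Eno1 and Suclg1 fell with rising slope across both genotypes, whereas Hk2 and Idh3a separated by genotype and Ogdh did so within each treatment, also in library 46 of KO/PEG at a slope of 0.228.

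**Figure D2:**
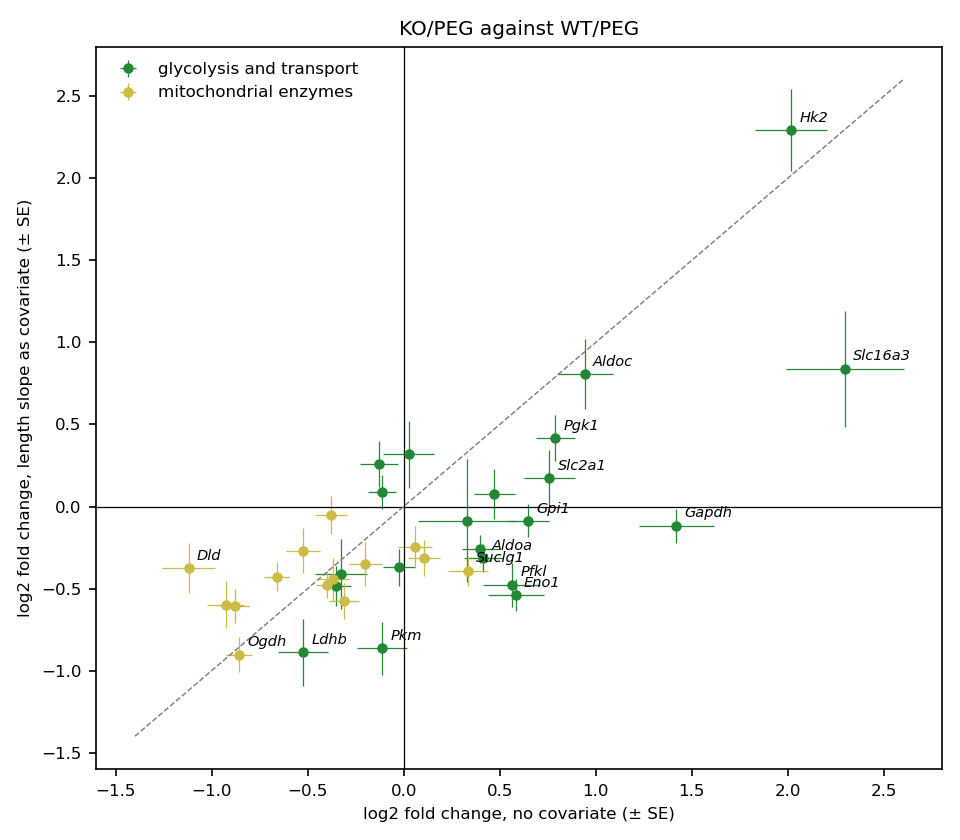
Log2 fold change of the 35 genes in KO/PEG against WT/PEG without (horizontal axis) and with (vertical axis) the length slope as a covariate, each with its SE, and the dashed line marks equal values. Hk2, Aldoc and Pgk1 stayed above 0 and Ogdh stayed near the dashed line below 0, while Eno1, Pfkl, Aldoa and Suclg1 crossed from above to below.

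Genes that fell in the glycolysis set were Ldhb, the lactate dehydrogenase of oxidative tissues (-0.53 ± 0.13, adjusted p = 3.97e-04), the muscle-type phosphofructokinase Pfkm (-0.35 ± 0.08, adjusted p = 1.00e-04) and the neuronal enolase Eno2 (-0.33 ± 0.13, adjusted p = 0.0270). With the covariate Pfkm (-0.48) and Ldhb (-0.89) stayed lower, and Eno2 did not pass (-0.41, adjusted p = 0.128), nor did it without a filter on low counts (-0.31, adjusted p = 0.0529). Ldhb was 354, 411 and 642 CPM in WT/PEG and 191, 265 and 430 CPM in KO/PEG, and its transcripts went apart. The median of the full-length transcript (1304 bases) was 350 CPM in WT/PEG and 149.3 in KO/PEG, with no overlap of the groups, and that of a short one of 437 bases was 40.4 and 99.3 CPM. All 6 neuron markers were lower in KO/PEG, and their part in the value of Eno2 was not tested. Hk1 (-0.11 ± 0.07), Pfkp (-0.13 ± 0.10), Pgam1 (-0.023 ± 0.084), Eno3 (0.33 ± 0.25), Pkm (-0.11 ± 0.13) and the lactate carrier Slc16a1 (0.027 ± 0.13) did not pass. Pkm and Pgam1 were lower with the covariate (-0.86, adjusted p = 5.21e-05, and -0.37, adjusted p = 0.00953).

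Within enzyme families, levels of different genes were compared per length, as estimated counts per transcript length scaled to the same sum in each library. Hk2 made up 4.35% to 11.0% of Hk1 and Hk2 in WT/PEG (median 7.42%) and 21.1% to 61.2% in KO/PEG (median 38.1%), with no overlap. A noncoding transcript of 594 bases had a median of 0.955 CPM in WT/PEG and 12.2 in KO/PEG. At the KO/PEG medians it weighed more in this share, per length, than the full-length transcript (5513 bases). The full-length transcript alone was 5.11 to 10.4 CPM in WT/PEG (median 7.35) and 11.4 to 63.3 CPM in KO/PEG (median 16.8). Slc16a3 made up a median of 14.7% of the 2 lactate carriers in WT/PEG and 36.7% in KO/PEG, and all KO/PEG libraries lay above the WT/PEG range of 7.01% to 19.7%. Ldha was 34.5% to 47.1% of Ldha and Ldhb in WT/PEG and 38.7% to 63.5% in KO/PEG, and these ranges overlapped. By level per length in WT/PEG, Aldoa was highest of the 35 genes with a median of 579. It was followed by Gapdh (505), Pkm (478), Mdh2 (441) and Ldhb (422), whose ranges overlapped with those of their neighbours. Counts of near-identical copies were left out of these levels. The copies of Gapdh held a median of 642 CPM in WT/PEG and Gapdh itself 227 CPM, before TMM factors, so its place is uncertain. Slc16a3 was lowest with a median of 2.54.

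Pyruvate kinase, the last step of glycolysis, is made from Pkm as M1 or M2 by use of exclusive exons. M2 is the form of proliferating and most epithelial cells, and M1 that of muscle and nerve. The exons are shown because the isoform shares below rest on them: both are exon 9 of their 11-exon transcript and 167 bases long, and the 64 bases at which they differ are in capitals. They lie on the plus strand of GRCm38 at chr9:59675029-59675195 (M1) and chr9:59675568-59675734 (M2), and sequences are from GENCODE transcripts.
M1: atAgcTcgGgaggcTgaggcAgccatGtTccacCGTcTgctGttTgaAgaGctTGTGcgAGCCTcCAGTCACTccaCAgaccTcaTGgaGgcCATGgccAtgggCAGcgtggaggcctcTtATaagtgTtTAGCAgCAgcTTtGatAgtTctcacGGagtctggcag
M2: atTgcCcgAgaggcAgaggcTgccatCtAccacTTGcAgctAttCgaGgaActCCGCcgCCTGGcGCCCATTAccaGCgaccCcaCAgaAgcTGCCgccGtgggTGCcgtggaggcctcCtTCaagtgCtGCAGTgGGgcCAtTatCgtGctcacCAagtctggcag
The sum of Pkm did not differ by the test, but M1 made up a smaller share of the counts of the M1 and M2 transcripts in KO mice. KO/PEG libraries had a share of 13.3% ± 4.6 (SD, n = 13) and WT/PEG libraries one of 20.3% ± 2.8 (n = 11). With NTZ it was 13.0% ± 4.2 (n = 11) in KO and 20.1% ± 3.8 (n = 9) in WT mice. The difference between KO/PEG and WT/PEG was -7.02 ± 1.52 (SE) percentage points (two-sided permutation test, p = 0.00032, adjusted over 4 comparisons p = 0.00128), and that between KO/NTZ and WT/NTZ was -7.14 ± 1.78 points (exact permutation test, p = 0.00136, adjusted p = 0.00271). Under NTZ the share differed by -0.256 ± 1.79 points in KO (permutation test, adjusted p = 0.923) and by -0.143 ± 1.52 points in WT mice (exact permutation test, adjusted p = 0.923). Of the KO/PEG libraries, 12 were below the lowest WT/PEG library of 15.4%, and library 46 was the highest of all with 27.02%. The M2 transcript (2432 bases) is longer than that of M1 (2041 bases). Of the smooth muscle markers, 4 of 5 were lower in KO/PEG, and of the neuron markers 6 of 6. The part of length and of these cells in the share was not tested.

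**Figure D3:**
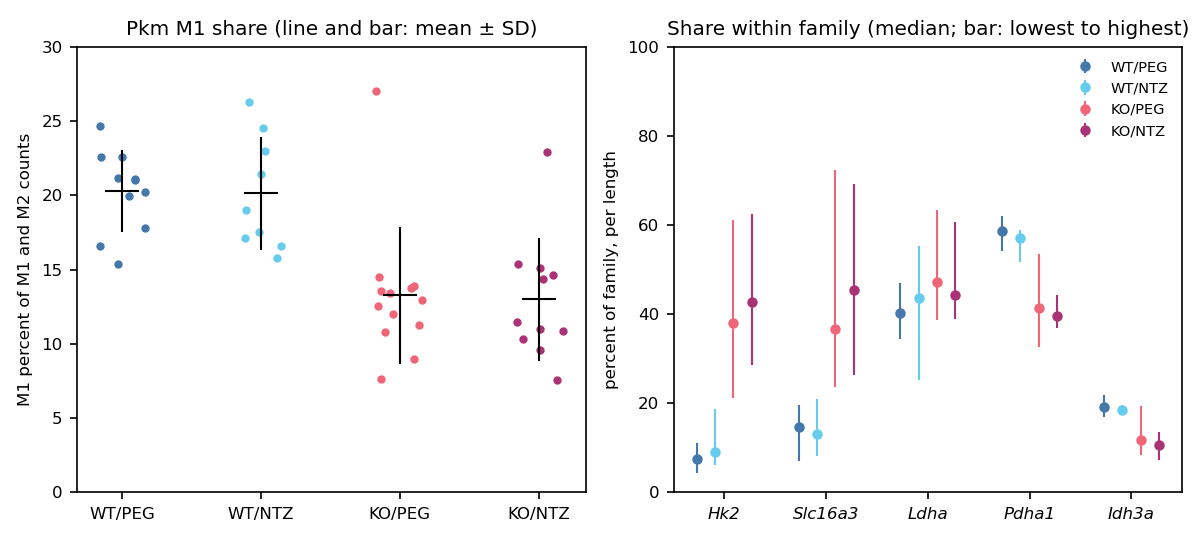
Left, M1 as a percent of M1 and M2 counts of Pkm in each library by group, with mean and SD. Right, the share of 1 gene within its family per length, as median with the range from the lowest to the highest library; Hk2 and Slc16a3 were above the WT ranges in all KO libraries and Idh3a was mostly below.

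Of the mitochondrial genes, the 11 that were lower are given first. Ogdh, the first subunit of the 2-oxoglutarate dehydrogenase complex, had the smallest p of the 35 genes. It was 498, 608 and 641 CPM in WT/PEG and 272, 329 and 429 CPM in KO/PEG, without overlap, a log2 fold change of -0.86 ± 0.07 (adjusted p = 7.27e-14) and -0.90 with the length slope as a covariate. Pdha1, the catalytic E1 subunit of pyruvate dehydrogenase, was 289, 299 and 363 CPM in WT/PEG and 120, 170 and 211 CPM in KO/PEG (-0.88 ± 0.07, adjusted p = 2.78e-13), and again the groups did not overlap. Dlat, the E2 subunit of the same complex, was 76.1, 81.1 and 92.3 CPM in WT/PEG and 40.5, 53.1 and 68.7 CPM in KO/PEG (-0.66 ± 0.07, adjusted p = 1.60e-11). Dld, the E3 subunit that the pyruvate and 2-oxoglutarate complexes share, was 182, 193 and 244 CPM in WT/PEG and 49.0, 92.01 and 136.8 CPM in KO/PEG. With -1.12 ± 0.14 (adjusted p = 2.58e-09) this was the largest fall of the 35 genes, but with the covariate it was -0.37 and did not pass (adjusted p = 0.0541).

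Idh3a, the catalytic subunit of the NAD-dependent isocitrate dehydrogenase, was 131, 152 and 193 CPM in WT/PEG and 49.8, 82.0 and 110 CPM in KO/PEG (-0.93 ± 0.10, adjusted p = 9.66e-11). For its partners, summed over transcripts, the fall was smaller in value, Idh3b by 0.37 ± 0.08 and Idh3g by 0.31 ± 0.08 on the log2 scale. Per length Idh3a made up a median of 19.1% of the 3 subunits in WT/PEG and 11.7% in KO/PEG. The main coding transcript of Idh3b had a median of 210.6 CPM in WT/PEG and 138.9 in KO/PEG. One of 452 bases, annotated as a target of nonsense-mediated decay, had 10.8 and 28.5 CPM. Per length this short transcript counts for more, and its part in the share of Idh3a was not tested. The other genes that fell were Sucla2 (-0.52 ± 0.09), a subunit of succinate-CoA ligase, citrate synthase Cs (-0.40 ± 0.06), fumarase Fh1 (-0.20 ± 0.09) and Pdk1 (-0.38 ± 0.08), a kinase that switches pyruvate dehydrogenase off. Pdk1 (-0.050, adjusted p = 0.778) and Sucla2 (-0.27, adjusted p = 0.122) did not pass with the covariate. Idh3g did not pass among animals with a label number of 100 or above (-0.17, adjusted p = 0.105). Fh1 was also lost without a filter on low counts, in a fit of the compared groups alone and in both fits on animal numbers, with the values from -0.19 to -0.039. Every KO/PEG library was below every WT/PEG library for 6 of the 14 genes (Pdha1, Dlat, Dld, Idh3a, Ogdh and Sucla2), and this held for 8.87% of all genes.

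The subunits of a complex did not all fall. Pdhb, which pairs with Pdha1 in E1, was 104, 115 and 158 CPM in WT/PEG and 85.1, 130 and 169 CPM in KO/PEG (0.11 ± 0.09, adjusted p = 0.260), and -0.31 with the covariate (adjusted p = 0.0215). Suclg1, the partner of Sucla2, was higher in KO/PEG (0.33 ± 0.10, adjusted p = 0.00356), but lower with the covariate (-0.39, adjusted p = 9.11e-04), and without the low-slope libraries it was 0.13 (adjusted p = 0.217). A short transcript of 534 bases, Suclg1-206, had a median of 18.4 CPM in WT/PEG and 41.3 CPM in KO/PEG, while the longer main transcript had 131 and 143.3 CPM. Malate dehydrogenase Mdh2 did not pass (0.058 ± 0.089). Of its counts, 84.2% were assigned to a transcript annotated as a target of nonsense-mediated decay, with a median of 283 CPM in WT/PEG and 359 in KO/PEG. A coding transcript of 506 bases had 55.0 and 31.9 CPM, and one of 1456 bases 1.80 and 1.51 CPM.

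**Figure D4:**
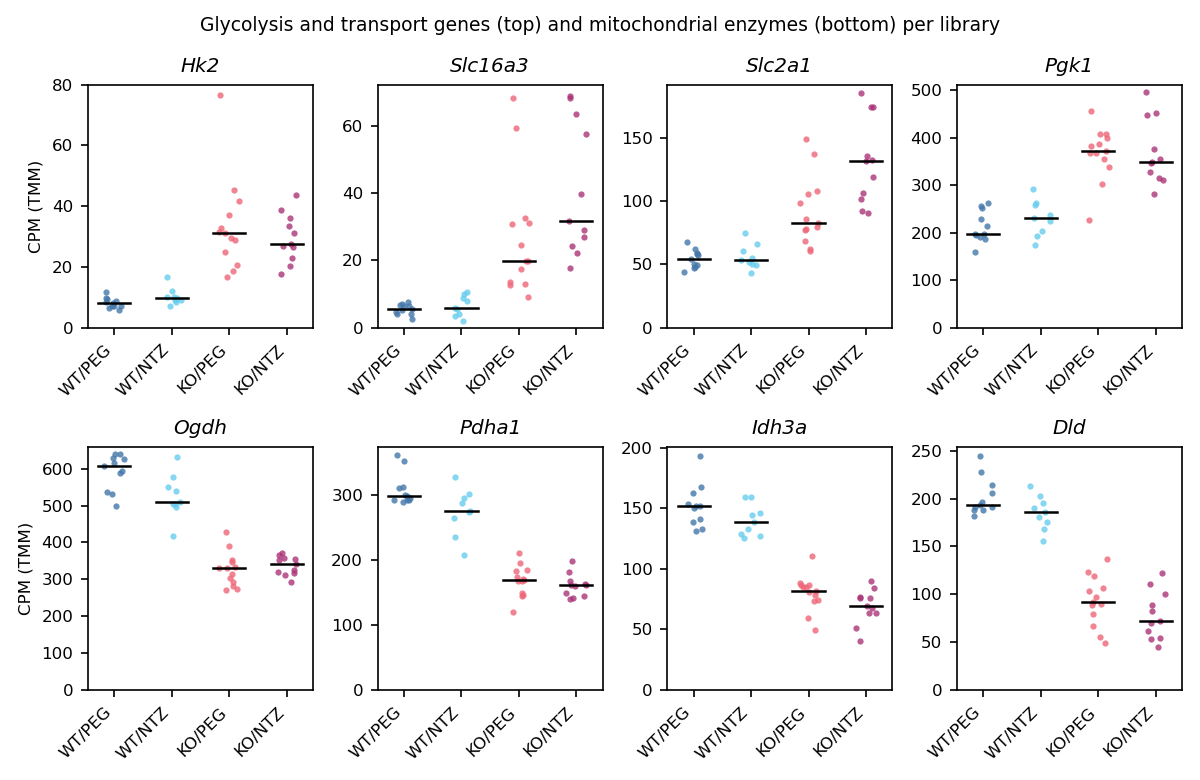
CPM of 4 glycolysis or transport genes (top) and 4 mitochondrial genes (bottom) in each library by group, with a bar at the median. Within each treatment, all KO libraries lay above the WT libraries for Hk2 and below them for Ogdh, Pdha1, Idh3a and Dld, and Slc2a1 was highest in KO/NTZ.

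Library 46 of KO/PEG, the one KO library with a length slope in the WT range, was set against the WT/PEG range. All 14 mitochondrial genes were below the lowest WT/PEG library there, Ogdh with 274 CPM, Pdha1 with 183 CPM and Cs with 298 CPM. Of the glycolysis set, Hk2 (76.6 CPM), Aldoc (7.56 CPM) and Slc16a3 (13.0 CPM) were above the WT/PEG range, 8 were below it and 10 were within. Among those below were Pfkl (104 CPM), Aldoa (604 CPM), Tpi1 (272 CPM), Eno1 (177 CPM), Pkm (377 CPM) and Ldhb (191 CPM). The library also had the highest mitochondrially encoded share of all, 14.5%.

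The effect of NTZ in KO mice was examined next, and few of these genes passed. Between KO/NTZ and KO/PEG, 1 of 21 glycolysis genes and 0 of 14 mitochondrial genes passed edgeR's test, where 5.56% of all genes were called and 2.97% were higher. At an unadjusted p under 0.05 there were 4 glycolysis genes and 1 mitochondrial gene. Median log2 fold changes were 0.15 and -0.064 for the sets, and -0.011 for all genes. The gene that passed was Slc2a1, with 60.8, 83.0 and 149.5 CPM in KO/PEG and 91.0, 132 and 185 CPM in KO/NTZ (0.51 ± 0.13, adjusted p = 0.0122). The groups overlapped, with 3 of 11 KO/NTZ libraries above all KO/PEG libraries. Slc2a1 did not pass with the KO groups fitted alone (0.51, adjusted p = 0.0876) or among animals with a label number below 100 (0.49, adjusted p = 0.253). Without the KO libraries of low slope, 5 glycolysis genes were higher in KO/NTZ, where 7.55% of all genes were, namely Slc2a1 (0.56), Pfkl (0.45), Gpi1 (0.35), Eno1 (0.37) and Slc16a3 (0.87). Eno2 was just outside the threshold (0.42 ± 0.13, adjusted p = 0.0503) and passed with DESeq2 (adjusted p = 0.0388), and 3 of the 6 neuron markers and 3 of the 5 smooth muscle markers were higher in KO/NTZ. The part of these cells in the value of Eno2 was not tested.

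In WT mice, none of the 35 genes passed edgeR's test for NTZ (1.03% of all genes called), with 2 glycolysis and 2 mitochondrial genes at an unadjusted p under 0.05. The smallest p was that of Eno3, the muscle enolase, with 2.41, 4.58 and 8.58 CPM in WT/PEG and 2.83, 10.5 and 18.7 CPM in WT/NTZ (1.01 ± 0.28, adjusted p = 0.0602). It passed with DESeq2 (1.04, adjusted p = 0.0221), with the class of animal number as a term (1.18, adjusted p = 0.0208) and among animals numbered 100 or above (1.39, adjusted p = 0.0173). Of the WT/NTZ libraries, 3 held skeletal muscle RNA, with Acta1 up to 80.4 CPM against at most 0.446 CPM in WT/PEG. Without these 3, Eno3 was 0.37 ± 0.28 (unadjusted p = 0.190, edgeR). Markers of squamous epithelium differed more widely between libraries. The summed level of 6 such markers had a median of 2.133 CPM in WT/PEG and 779.7 CPM in WT/NTZ. The highest libraries had 497.7 and 4109 CPM. In KO/PEG and KO/NTZ the medians were 22.89 and 93.33 CPM. Within each genotype the ranges overlapped. The part of this tissue in the comparisons, also in that of the genotypes under NTZ, was not tested.

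The genotypes were also compared under NTZ, in groups that share no library with the comparison under PEG. In KO/NTZ against WT/NTZ, 12 glycolysis genes were higher and 1 was lower, and 1 mitochondrial gene was higher and 11 lower, where 72.4% of all genes were called, 35.6% higher and 36.8% lower. The medians were 0.53 and -0.39, against -0.031 over all genes. With the length slope as a covariate the glycolysis set had 3 higher (Hk2, Slc2a1 and Slc16a3) and 4 lower, and the mitochondrial set 10 lower, where 12.5% of all genes were higher and 12.0% lower. Aldoc (0.46, adjusted p = 0.137) and Pgk1 (0.31, adjusted p = 0.107) did not pass in that fit. Slc2a1 was 42.9, 53.5 and 74.9 CPM in WT/NTZ and 91.0, 132 and 185 CPM in KO/NTZ (1.22 ± 0.15, adjusted p = 3.15e-09), with no overlap. Slc16a3 was 1.94, 5.92 and 10.7 CPM in WT/NTZ and 17.6, 31.9 and 69.0 CPM in KO/NTZ (2.65 ± 0.34, adjusted p = 1.22e-08). Hk2 was 7.16, 9.89 and 16.7 CPM in WT/NTZ and 17.8, 27.5 and 43.6 CPM in KO/NTZ (1.52 ± 0.20, adjusted p = 2.42e-08). Gpi1 (0.89 ± 0.12) was 275, 297 and 345 CPM in WT/NTZ and 410, 584 and 727 CPM in KO/NTZ, and Gapdh (1.49 ± 0.21) 222, 280 and 349 CPM and 460, 770 and 1271 CPM. Neither overlapped between the groups, and both were lost with the covariate (0.18 and 0.0062).

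Among mitochondrial genes under NTZ, Idh3a was 125.7, 138 and 159 CPM in WT/NTZ and 40.6, 69.5 and 90.0 CPM in KO/NTZ (-1.02 ± 0.11, adjusted p = 1.53e-10). Pdha1 was 207, 276 and 327 CPM in WT/NTZ and 139, 161 and 198 CPM in KO/NTZ (-0.77 ± 0.08, adjusted p = 1.82e-10). Dlat (-0.62 ± 0.07) was 69.4, 75.4 and 86.7 CPM in WT/NTZ and 41.7, 49.6 and 60.0 CPM in KO/NTZ, and Ogdh (-0.64 ± 0.08) 416, 511 and 633 CPM and 292, 342 and 371 CPM. Dld was 156, 187 and 213 CPM in WT/NTZ and 45.2, 71.6 and 122 CPM in KO/NTZ (-1.24 ± 0.15, adjusted p = 3.28e-09). All 5, and also Cs, had every KO/NTZ library below every WT/NTZ library, 6 of the 14 mitochondrial genes. Of the 21 glycolysis genes, 6 had every KO/NTZ library above every WT/NTZ library. How many of all genes did not overlap was not counted under NTZ, so these counts have no share to be read against. The effects of NTZ in KO and WT mice were also set against each other. None of the 35 genes passed the test of this difference in edgeR, where 0.96% of all genes did, and 3 were at an unadjusted p under 0.05, with Slc2a1 (0.47 ± 0.19, adjusted p = 0.298) the smallest.

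Other genes of the pathway went in several directions in KO/PEG against WT/PEG. Their counts are to be read against 37.5% of all genes higher and 37.2% lower. With the covariate these shares were 17.8% and 17.8%. Of 18 further glycolysis genes tested of 21 listed, 6 were higher and 7 lower (median 0.094). Pgm1, which links glycogen to glycolysis, was higher (1.07 ± 0.09), as was the hexokinase Hkdc1 (2.54 ± 0.25), while Pfkfb3, whose product fructose 2,6-bisphosphate activates phosphofructokinase, was lower (-1.98 ± 0.17), as was the insulin-regulated glucose carrier Slc2a4 (-1.33 ± 0.13). All 6 gluconeogenesis genes tested of 7 were called, 4 higher and 2 lower (median 0.81), with Fbp1 (2.95 ± 0.26) and Pck2 (1.34 ± 0.12) higher. Of 8 pentose phosphate genes, 6 were higher and 1 lower (median 0.76), Pgd (0.86 ± 0.10) and Taldo1 (0.76 ± 0.09) among them, and 2 were higher with the covariate.

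Of 12 further genes of pyruvate handling, 3 were higher and 7 lower (median -0.42), where 37.5% of all genes were higher and 37.2% lower. Me1, the cytosolic malic enzyme that makes pyruvate and NADPH, was higher (1.82 ± 0.15), and the kinase Pdk4 (-1.69 ± 0.22), the pyruvate carrier subunit Mpc1 (-0.67 ± 0.10) and Pdpr (-2.61 ± 0.30), a regulator of pyruvate dehydrogenase phosphatase, were lower. In KO/NTZ against KO/PEG, Me1 was higher (0.54 ± 0.15, adjusted p = 0.0187) and Pdpr lower (-1.21 ± 0.33, adjusted p = 0.0221). Of 14 other citric acid cycle genes, 6 were higher and 6 lower (median 0.025). Sdha, the catalytic subunit of succinate dehydrogenase, was lower (-0.76 ± 0.10), whereas the carriers Slc25a1 (1.42 ± 0.15) and Slc25a10 (1.02 ± 0.12), which move citrate and dicarboxylates out of mitochondria, were higher. With the covariate this list had 1 higher and 8 lower, where 17.8% of all genes were higher and 17.8% lower. Of 6 cytosolic counterparts 2 were higher and 4 lower (median -0.26), with Idh1 higher (0.87 ± 0.13) and Got1 lower (-0.78 ± 0.08), and Idh1 was lower in KO/NTZ than in KO/PEG (-0.48 ± 0.12, adjusted p = 0.0137).

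Of 13 hypoxia response genes, 3 were higher and 6 lower (median -0.27), where 37.5% of all genes were higher and 37.2% lower. Car9, a carbonic anhydrase that is among the strongest targets of hypoxia-inducible factors in many tissues and is high in normal gastric mucosa, was lower (-2.75 ± 0.19), and P4ha2 (-1.26 ± 0.13) and Egln1 (-0.57 ± 0.07) were lower too. Of 9 genes of mitochondrial mass, 3 were higher and 2 lower (median 0.088), with Tomm22 (0.74 ± 0.11) and Vdac2 (0.36 ± 0.07) higher and Cycs lower (-0.23 ± 0.09). With the covariate none of these was higher and 2 were lower, where 17.8% of all genes were higher and 17.8% lower. In KO/NTZ against KO/PEG, 2 of the 13 hypoxia genes and 2 of the 12 further pyruvate genes were higher, where 2.97% of all genes were. None of the further glycolysis and citric acid cycle genes was called, against 5.56% of all genes. Nor was any gene of the gluconeogenesis, pentose phosphate and mitochondrial mass lists.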

How the data were processed

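The authors quantified GRCm38 transcripts from single reads of stranded messenger RNA libraries with kallisto 0.42.4 and deposited an estimated count for each of 94080 transcripts in each of the 44 libraries, without normalization. Per the labels, libraries were grouped by genotype and treatment. Of the transcripts, 92372 were paired with GENCODE vM21 gene names and their estimated counts were summed per gene and rounded. Unpaired transcripts held 0.329% to 1.3% of the counts of a library. The table held 0 columns of no labelled library.

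Genes were filtered with filterByExpr (minimum count 10, minimum total 15), normalized by TMM and tested with the quasi-likelihood test of edgeR 4.0.16 in R 4.3.3, all 44 libraries in 1 fit with a mean for each group. The study itself used Sleuth, whose per-library resampling input was not used here. Adjusted p-values are Benjamini-Hochberg values over the 14901 genes tested, with a threshold of 0.05, and the SE is the log2 fold change divided by the root of F. Whether libraries of a group came from separate mice was taken from their labels: a pair of WT/PEG libraries has the animal number 172, and its chi-square was 17.2 per degree of freedom, rank 11 of 55 WT/PEG pairs, so it was counted as 2. The number 110 occurs in both KO groups. The M1 share was compared by two-sided permutation of libraries (100000 resamples, exact where a group had fewer than 10) with scipy.

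The members and lists were chosen with earlier results of these data known. All 35 genes were named, and in each comparison the 5 of each set with the smallest p among those called were given in full, and of each other list at most 4 genes, of which 1 is not reported here. The length slope was taken over genes with a mean of at least 10 CPM. Copies were genes of which at least 50% of the 31-base words are shared with a member. Alternatives were RLE size factors, no filter, DESeq2 1.42.0, the compared groups alone, animal numbers within 1 class (100 or above, below 100) or as a term, the pair 172 summed, the libraries numbered 110 left out, mitochondrially encoded genes left out, and the length slope. Added copies, KO libraries with a slope below -0.3 left out and libraries with Acta1 of at least 10 CPM left out were chosen after the data were seen. Tests were tried on simulated data. Counting limits cover counting error only. Figures were drawn with matplotlib in Python.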

Additional observations from a re-analysis of the deposited data

Results flagged for a closer look

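Among the 35 genes and the M1 share of Pkm in the 9 WT/NTZ libraries, which were the only group small enough for the test of a stray value, 1 value stood apart from the others. Hk2 was 16.7 CPM in 1 library of WT/NTZ and 7.16 to 11.9 CPM in the other 8, a gap of 0.499 of the range. Chance alone sets apart about 1 in 20 such groups. The library was also among the 3 of WT/NTZ with skeletal muscle RNA, and the part of that in the value was not tested.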

How the results depend on the processing

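With the length slope as a covariate, glycolysis genes that were higher numbered 3 in KO/PEG against WT/PEG (lower: 8) and 3 in KO/NTZ against WT/NTZ (lower: 4), and no mitochondrial gene was higher (0 in each). Under it Gpi1 (-0.087), Pfkl (-0.48), Aldoa (-0.31), Tpi1 (-0.26), Gapdh (-0.12), Eno1 (-0.54) and Suclg1 (-0.39) reversed in KO/PEG against WT/PEG, and Pfkl (-0.18), Aldoa (-0.20), Tpi1 (-0.078), Eno1 (-0.29), Suclg1 (-0.30) and Pdk1 (0.062) in KO/NTZ against WT/NTZ. The cause was not tested. All genes called in KO/PEG against WT/PEG fell from 5587 higher and 5536 lower to 2650 and 2657.

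Within 1 class of animal number, lower glycolysis genes were 5 under PEG and 2 under NTZ, higher mitochondrial genes were 2 under PEG, and Slc2a1 was lost, leaving 0 in KO/NTZ against KO/PEG. The fit of the compared groups alone also gave 0 there and 2 higher mitochondrial genes in KO/NTZ against WT/NTZ, as did the class as a term (2). In KO/NTZ against KO/PEG DESeq2 called 2 higher glycolysis genes, and 5 were higher without low-slope KO libraries, which also left 0 mitochondrial genes higher in KO/PEG against WT/PEG. In WT/NTZ against WT/PEG, Eno3 was called by DESeq2, within the class and with the class as a term (1 each). Without libraries with skeletal muscle RNA, lower glycolysis genes in KO/NTZ against WT/NTZ were 2. RLE size factors, no filter, the summed pair of WT/PEG libraries with the same animal number, the libraries numbered 110 left out, mitochondrially encoded genes left out and added copies kept all 20 counts within 1.5 times. The M1 share was tried only within 1 class of animal number, with the WT/PEG pair summed and without the libraries numbered 110. In these settings no difference in the share changed its direction or its side of the threshold. The share was not tested with the length slope as a covariate, without low-slope KO libraries or without libraries with skeletal muscle RNA.

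No paired analysis was possible because the groups share fewer than 2 animal numbers. Animal numbers of 100 or above were 11 of 11 in WT/PEG and 1 of 11 in KO/NTZ, and what they mean is not stated, so that they cannot be told apart from group in part. The depth limits of up to 0.495 CPM lay below every library's level of each of the 35 genes.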
